A study of Schistosoma mansoni with 6 samples.

Results

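The genes described here encode ubiquitin and its relatives, the enzymes that attach them to proteins and the enzymes that take them off, in adult females of the blood fluke Schistosoma mansoni. Members were chosen by annotation words (ubiquitin, cullin, F box, SUMO or ring finger), with proteasome subunits, ribosomal proteins and a few other terms set aside. Of 178 genes with such a word, 1 was a ribosomal protein and 1 had no reads, which left 176 members among 9947 genes with reads and 10831 genes in all. Levels took no part in the choice. By annotation the members comprised 6 genes for ubiquitin and ubiquitin-like modifiers, 2 activating enzymes (E1), 21 conjugating enzymes (E2), 7 genes for SUMO and its enzymes, 17 HECT and WW ligases, 59 RING and other ligases, 33 cullins, F box proteins and their partners, 23 hydrolases and 8 others.

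Ubiquitin is a small protein that is joined to other proteins in a relay. An E1 activates it, an E2 carries it and an E3 ligase selects the protein that receives it. Chains of ubiquitin often send that protein to the proteasome, while single ubiquitins can change the place or partners of a protein, as they do on histones, and hydrolases reverse the mark. HECT ligases take ubiquitin onto themselves before passing it on, RING ligases bring the E2 next to its target, and cullins are scaffolds to which F box proteins bring targets. The roles given below come mostly from mammals, insects and yeast, and the gene names are those of the deposited annotation.

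Female worms recovered from mice 7 to 8 weeks p.i. were cut in front of and behind the ovary, and RNA was sequenced from the front fragments (heads) and from the rear fragments (tails), which are filled mostly by the vitellaria, the glands that make the yolk cells and eggshell precursors. Each of the 3 head and 3 tail libraries was made from pooled fragments of many untreated worms, and 3 independent rounds of extraction were made. Whether a head and a tail library of the same round were paired is not known here, and the tests measure the spread between pools. Every library holds RNA of whole fragments, in which more cells of a kind and more RNA per cell cannot be told apart.

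The deposited values are means of the 3 libraries of a group, in normalised counts, which are reads divided by a size factor for each library. They are not divided by gene length, so levels are compared here between heads and tails but not between genes. Whole reads of the single libraries were solved from the means for 6892 genes in both groups. The libraries are named a, b and c by falling size factor, and their values are given in that order. The head libraries held 31.1, 28.7 and 25.4 M reads on genes and the tail libraries 11.8, 5.8 and 5.2 M. Among the members tested, the median coefficient of variation was 5.38% in heads and 16.7% in tails. Whether the fewer reads or differences between the tail pools had a part in the wider spread was not tested. The 6 markers of vitelline cells summed to 6715 normalised counts in heads and 582760 in tails and were all more than 2-fold higher in tails, whereas 4 of 4 markers of the oesophageal gland, at the front of the worm, summed to 79462 in heads and 412 in tails. The tyrosinase Smp_013540, a vitelline marker, stood at 3.53, 67.3 and 262 in the head libraries and was thus uneven among them. It was the only marker of the 6 with head reads recovered, so the spread of vitelline RNA among heads rests on 1 gene. Whether vitelline tissue had a part in the differences of members higher in tails was not tested.

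Of the 176 members, 99 had reads recovered in both groups and 96 of these had at least 10 reads and were tested with limma. The other 80 included 37 recovered in tails only, 2 in heads only and 38 in neither group, mostly genes with many reads for which only group means can be given in the group not recovered, and 3 with under 10 reads. The recovery reached head means up to 1000 and tail means up to 2000, and it left out more of the genes higher in tails. Among members with a mean of at least 50, 8 of the 18 that were at least 2-fold higher in tails had no test, against 2 of the 14 at least 2-fold higher in heads, and over all genes 445 of 1058 and 422 of 1522 had none. In all, 27 members (28.1% of those tested) were higher in tails, against 26.9% of all 6315 genes tested, and 27 (28.1%) were higher in heads, against 37.2% of all genes, at an adjusted p under 0.05. The other 42 did not pass. The median SE of the log2 fold change was 0.16 over the tested members and 0.21 over all tested genes. With the groups scaled to equal total counts, which lowers each log2 fold change by 0.43, 10 members were higher in tails (14.1% of all genes) and 46 in heads (52.8% of all genes). Leaving out 1 library gave 19 to 36 members higher in tails and 16 to 29 higher in heads, where the lowest head count, 16, came without head library b, and the counts without head libraries a and c were both 17. The members called in each of these 6 fits were 17 of the 27 higher in tails and 16 of the 27 higher in heads. The fit takes a common variance for each gene over heads and tails, and leaving out a library leaves fewer values for it. A call can thus be lost, here and below, while the log2 fold change stays nearly the same.

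Between the group means, 18 of the 166 members with a mean of at least 50 were at least 2-fold higher in tails (10.8%, against 13.5% of 7852 such genes) and 14 at least 2-fold higher in heads (8.43%, against 19.4%). At 4-fold, 3 members were higher in tails (1.81%, against 3.13%) and 4 in heads (2.41%, against 6.29%). All 6 libraries could be compared for 89 of the 166, and the tail libraries lay wholly above the head libraries for 34 (38.2%, against 36.5% of all such genes) and wholly below them for 29 (32.6%, against 38%). The shares of members higher in tails were thus near those of all genes, and the shares higher in heads were lower than those of all genes. The median log2 ratio of the members was 0.16, beside 0.08 for all genes of that level, and both fell below 0 with equal total counts, to −0.26 and −0.35. For the 39 proteasome subunit genes of that level, which encode the machine that degrades ubiquitin-tagged proteins, the median was 0.74, or 0.31 with equal total counts. Of these, 37 had a ratio above 0 and 7 were at least 2-fold higher in tails, while none was 2-fold higher in heads.

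**Figure D1:**
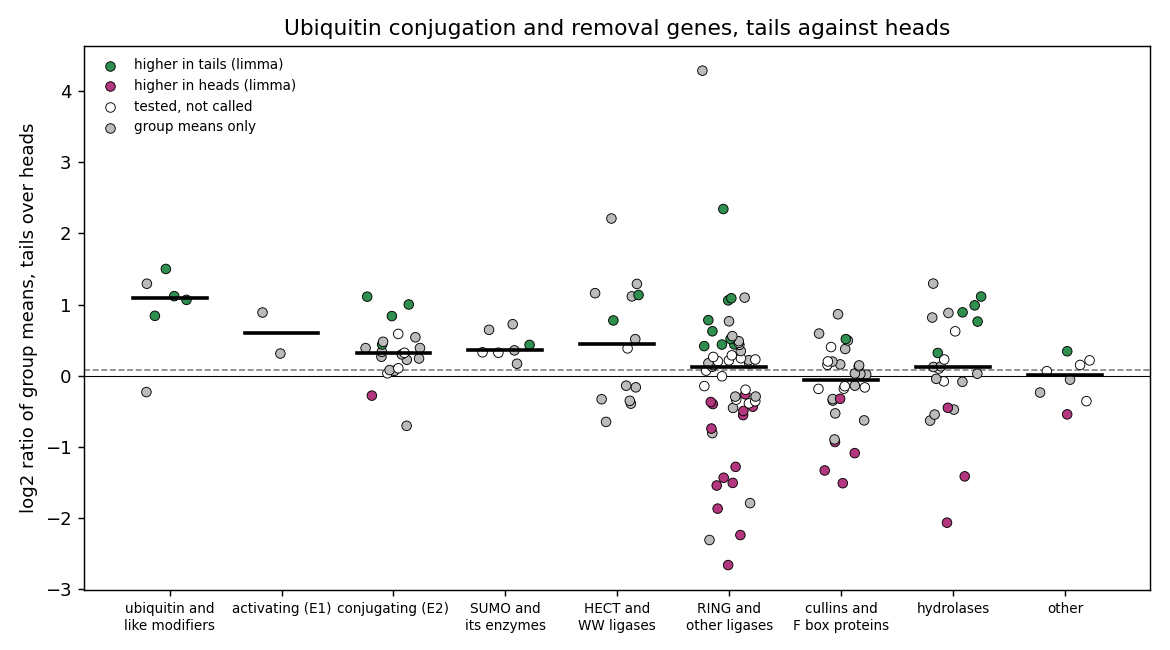
Log2 ratio of group means, tails over heads, for the 166 members whose mean reached at least 50, by enzyme class. Each point is 1 gene, coloured by its limma call, the thick bars are class medians and the dashed line is the median of all genes of that level (0.08). The modifiers lie highest, with a median of 1.09, and the points at the bottom are RING ligases and hydrolases. With equal total counts every point would lie 0.43 lower.

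By their means, 5 of the 6 genes for ubiquitin and its relatives were higher in tails. The modifier gene with the highest counts, polyubiquitin Smp_009580, was not. All 4 modifiers that could be tested were higher in tails, against 26.9% of all genes tested. With equal total counts 3 of these were still called, beside 14.1% of all genes. The class median was 1.09 (0.66 with equal total counts). By their group means 4 of the 6 modifiers were at least 2-fold higher in tails, against 13.5% of all genes with a mean of at least 50. The ubiquitin genes are described first, and then the relatives.

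Polyubiquitin C (Smp_046690), which encodes ubiquitin repeats in a row, stood at 169, 164 and 142 in the 3 head libraries and at 379.6, 576 and 391 in the 3 tail libraries. Every tail library was above every head library, and the log2 fold change was 1.47 ± 0.19 (SE, adjusted p = 0.000433). The gene annotated as ubiquitin (Smp_120630) had 809, 919 and 881 in heads and 1510.1, 1827 and 2128 in tails, again without overlap, and its log2 fold change was 1.05 ± 0.14 (SE, adjusted p = 0.000447). The polyubiquitin gene Smp_009580 had means of 28069.5 in heads and 23948 in tails, and was the one modifier whose mean was lower in tails (log2 ratio −0.23, with no error). Of these 3 genes it had by far the highest counts, and its log2 ratio would be 0.43 lower with equal total counts. Its reads in single libraries could not be solved. Ubiquitin repeats are much alike, and how the authors counted reads that match several genes is not known here, so the split of reads between these 3 genes is uncertain.

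Among the relatives, ubiquitin modifier 1 (Smp_030180) had 458, 540.2 and 567 in heads and 990.1, 953 and 1455 in tails, for a log2 fold change of 1.10 ± 0.18 (SE, adjusted p = 0.00122). Ubiquitin protein 5 like (Smp_210190), whose relatives in yeast and mammals act in splicing, had 441, 469 and 509 in heads and 705, 763 and 1077 in tails, giving a log2 fold change of 0.82 ± 0.17 (SE, adjusted p = 0.00362). Both were higher in every tail library than in any head library, but the second was not called with equal total counts (adjusted p = 0.0694). Ubiquitin fold modifier 1 (Smp_091230), which in mammals is attached to proteins at the endoplasmic reticulum, had a head mean of 1221 and a tail mean of 2993 (log2 ratio 1.29).

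**Figure D2:**
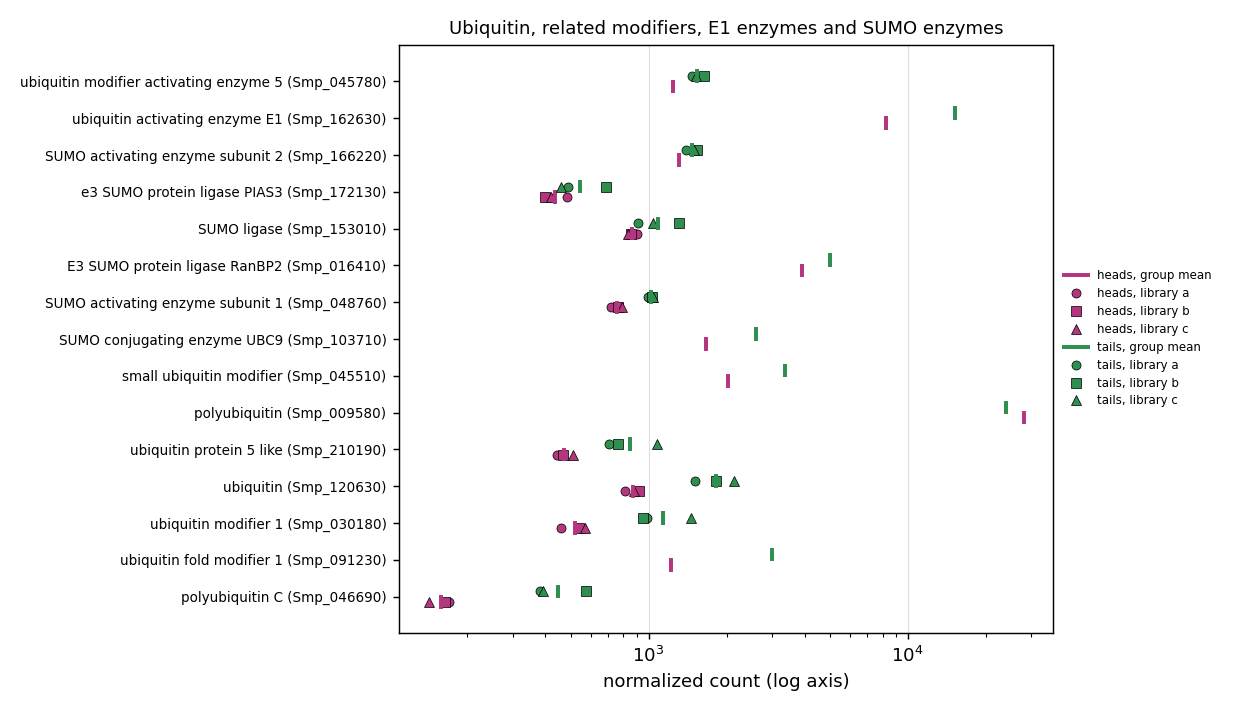
Normalised counts (log axis) of the ubiquitin, related modifier, E1 and SUMO genes in heads (magenta) and tails (green). Symbols are single libraries where reads were recovered and short bars are group means. The group means of all but the polyubiquitin gene Smp_009580 are higher in tails. With equal total counts 4 of the 7 SUMO genes and 1 of 2 E1 genes would turn lower in tails.

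The ubiquitin activating enzyme E1 (Smp_162630), which starts the relay, had a head mean of 8262 and a tail mean of 15298 (log2 ratio 0.89). Ubiquitin modifier activating enzyme 5 (Smp_045780), whose mammalian relative activates ubiquitin fold modifier 1, had a head mean of 1243 and 1473, 1637 and 1521 in the tail libraries. Its log2 ratio was 0.31, which turns negative with equal total counts, whereas that of ubiquitin fold modifier 1 itself was 1.29. Neither E1 could be tested.

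The conjugating enzymes had a median log2 ratio of 0.32, with 19 of 21 above 0, but with equal total counts the median was −0.11 and 7 were above 0. Of the 9 tested, 4 were higher in tails (44.4%, against 26.9% of all genes) and 1 in heads (11.1%, against 37.2%). The other 4 did not pass. With equal total counts 1 was higher in tails and 3 in heads, beside 14.1% and 52.8% of all genes. By their means 2 of the 21 E2 genes were at least 2-fold higher in tails (against 13.5% of all genes) and none in heads (against 19.4%).

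The E2 gene Smp_055920 had 689, 672 and 639.7 in heads and 954, 1484 and 1568 in tails, for a log2 fold change of 0.97 ± 0.19 (SE, adjusted p = 0.00255). It was the E2 that was still called with equal total counts. Both gene models annotated as conjugating enzyme E2 O, a large E2 that in mammals also works as a ligase, were higher in tails. Smp_007780 had 123, 137 and 116 in heads and 357, 275 and 182 in tails, for a log2 fold change of 1.06 ± 0.25 (SE, adjusted p = 0.0068), and Smp_007770 had 213, 215 and 219 in heads and 453, 457 and 247 in tails, for a log2 fold change of 0.78 ± 0.24 (SE, adjusted p = 0.0211). The tail libraries of this pair differed among themselves, and tail library c was the lowest for both. The call of Smp_007770 was lost without any single library other than tail library c (adjusted p up to 0.0737). The E2 O models lie next to each other in the RefSeq gene order, and whether they are parts of 1 gene was not tested.

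Conjugating enzyme E2A (Smp_118220), the relative of yeast Rad6, which works with BRE1 on histone H2B, had 585, 683 and 681 in heads and 773, 868 and 1002 in tails, giving a log2 fold change of 0.43 ± 0.13 (SE, adjusted p = 0.0192). Without head library a its call was lost (adjusted p = 0.0832), and with equal total counts its log2 fold change was 0.01. E2 C (Smp_051010) and E2 S (Smp_180170), which serve the anaphase promoting complex in dividing cells, did not pass, with log2 fold changes of 0.31 (95% interval −0.00075 to 0.63) and 0.10 (−0.18 to 0.37), although E2 S was called in heads with equal total counts (adjusted p = 0.0385). Beside these, the replication clamp PCNA, a marker of dividing cells, had a head mean of 1282 and a tail mean of 3621. It had the largest ratio on the list of such markers. Histone H2B (Smp_036220), also on that list, had a head mean of 3720 and a tail mean of 6169 (log2 ratio 0.73). The remaining H2B genes listed, Smp_077790 and Smp_108390, had head means of 0.16 and 0.14 and were at 0 in tails. PCNA and Smp_036220 could not be tested. The E2 with the lowest ratio was Smp_082820, annotated E2 11, with a head mean of 1007 and 534, 667 and 654 in the tail libraries, all below the head mean. The E2Q 2 gene Smp_029940 was higher in heads, with 563, 558 and 550.4 in heads and 473, 457 and 448 in tails. Its log2 fold change was −0.28 ± 0.10 (SE, adjusted p = 0.038). That call was lost without any single head library or tail library b (adjusted p up to 0.119), while the log2 fold change stayed from −0.30 to −0.26. The E2 genes with the highest counts, Smp_028100 (E2 G) and Smp_068000, had log2 ratios of 0.30 and 0.22, which turn negative with equal total counts.

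SUMO is attached to proteins by enzymes of its own, which parallel those of ubiquitin. All 7 genes of the SUMO pathway had a ratio above 0, with a median of 0.36, but none reached 2-fold and with equal total counts 4 of 7 were below 0. The modifier itself (Smp_045510) had a head mean of 2029 and a tail mean of 3352 (log2 ratio 0.72). Its conjugating enzyme UBC9 (Smp_103710) followed, with means of 1668 and 2609 and a log2 ratio of 0.65. Of the activating enzyme, subunit 1 (Smp_048760) had 718, 760.3 and 787 in heads and 991, 1033 and 1036 in tails, for a log2 fold change of 0.43 ± 0.09 (SE, adjusted p = 0.00442), and subunit 2 (Smp_166220) a head mean of 1310.5 and 1396, 1532 and 1493 in the tail libraries. Only 3 of the 7 SUMO genes could be tested. Of these, subunit 1 was called in tails (33.3%, against 26.9% of all genes) and the other 2 did not pass. With equal total counts the log2 fold change of subunit 1 was 0.01. The ligase RanBP2 (Smp_016410), also a part of the nuclear pore, had a log2 ratio of 0.36.

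The HECT and WW ligases included several genes higher in tails and others slightly lower there. Among the 14 with a mean of at least 50 the median log2 ratio was 0.45 (0.02 with equal total counts). Of these 14, 5 were at least 2-fold higher in tails (against 13.5% of all genes of that level) and none in heads (against 19.4%). Of the 5 HECT genes tested, 2 were higher in tails (40%, against 26.9% of all genes) and 1 in heads (20%, against 37.2%). The other 2 did not pass. With equal total counts 2 were called in each direction, beside 14.1% of all genes in tails and 52.8% in heads.

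Both genes that passed in tails were annotated as NEDD4, a ligase known for acting on membrane proteins. Smp_175650 had 605, 595 and 612 in heads and 1321, 1475 and 1183 in tails, for a log2 fold change of 1.13 ± 0.11 (SE, adjusted p = 0.000143). Smp_207020 had 631, 699 and 619.5 in heads and 1068, 1219.9 and 1055 in tails, for a log2 fold change of 0.78 ± 0.11 (SE, adjusted p = 0.000592). Each was higher in every tail library than in any head library and both were still called with equal total counts. These models too are neighbours in the RefSeq gene order and were counted separately by the authors. The WW domain ligase Smp_165260 had means of 1626 and 3523, a log2 ratio of 1.12.

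Of the very large HECT ligases, HUWE1 was annotated at a pair of genes. Smp_167680 had 418, 507 and 479.9 in the head libraries and a tail mean of 2167, a log2 ratio of 2.21, and Smp_167690 had means of 5240.3 and 11716, a log2 ratio of 1.16. The gene annotated edd (Smp_150360), the ligase called hyperplastic discs in flies, had means of 3602 and 8813, a log2 ratio of 1.29. TRIP12 (Smp_172420) had a log2 ratio of 0.51. These were higher in tails by their means, but no test could be made because their tail reads could not be solved.

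Other HECT ligases had lower means in tails. E3B (Smp_137040) had a head mean of 3011 and 2236, 1881 and 1646 in the tail libraries, and HERC4 (Smp_142890) a head mean of 1024 and 836, 819.9 and 685, so the tail libraries of both lay wholly below the head mean. For E3C (Smp_130650), which in mammals lengthens chains on proteins held by the proteasome, the tail libraries spread from 933 to 1824 around a head mean of 1682. A gene annotated HERC5 (Smp_074990), with few reads, passed in heads, with 65.5, 51.1 and 52.8 in heads and 33.4, 39.7 and 34.4 in tails, giving a log2 fold change of −0.64 ± 0.24 (SE, adjusted p = 0.0486). That call was lost without any single head library or tail library c (adjusted p up to 0.172).

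The RING and other ligases had the widest range of ratios among the classes. Among the 55 with a mean of at least 50 the log2 ratio ran from −2.66 to 4.29, with a median of 0.13 (−0.30 with equal total counts), and 5 were at least 2-fold higher in tails and 9 at least 2-fold higher in heads. At 2-fold the shares of all genes were 13.5% in tails and 19.4% in heads. Of the 41 tested, 9 were higher in tails (22%, against 26.9% of all genes) and 16 in heads (39%, near the 37.2% of all genes). The other 16 did not pass. With equal total counts 2 and 23 were called, beside 14.1% and 52.8% of all genes.

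The member with the largest ratio was a membrane associated RING finger protein (Smp_056700), whose annotation names a RING finger and a membrane but no target. Its head mean was 351 and its tail mean 6866 (log2 ratio 4.29). Its head reads were not settled, because 3 sets of reads gave the head mean, but in each set the highest head library was at least 4.71 times the lowest and reached at most 961. The tail mean was thus far above any head library. Library a was the lowest head library in 1 of the 3 sets, as for the vitelline tyrosinase given above, and the highest in the other 2. Whether carried-over vitelline tissue had a part in this spread was not tested.

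RNF168 (Smp_141160), which in vertebrates marks histone H2A around broken DNA, had the largest log2 fold change among the tested members higher in tails. It had 52.1, 138 and 142 in heads and 574, 604 and 507 in tails, giving a log2 fold change of 2.46 ± 0.36 (SE, adjusted p = 0.000745). Head library a was the lowest, as for the tyrosinase, and without it the log2 fold change was 1.99. Among the 12 members at least 2-fold higher in tails with head reads recovered, 7 were lowest in head library a. Of 3020 other genes with head reads recovered, all less than 2-fold apart between the groups, 44.8% were. No such share was worked out for other genes at least 2-fold higher in tails.

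Unkempt (Smp_154250), a ring finger protein that binds RNA in flies and mammals, had 613, 734 and 663 in heads and 1613, 1509 and 1155 in tails, for a log2 fold change of 1.08 ± 0.15 (SE, adjusted p = 0.000531). The PHD and RING finger protein Smp_179000 had 942, 839 and 858 in heads and 1085, 1901 and 2516 in tails, giving a log2 fold change of 0.98 ± 0.27 (SE, adjusted p = 0.0138), which no longer passed without head library b or tail library b (adjusted p up to 0.052). RING finger protein 38 (Smp_201820) had 939, 835 and 823 in heads and 1142, 1733 and 1590.0 in tails, for a log2 fold change of 0.76 ± 0.16 (SE, adjusted p = 0.00417). For all 3 genes the tail libraries lay above the head libraries, and with equal total counts only unkempt among them was still called. The genes with the highest counts could not be tested. Synoviolin B (Smp_157360), the ligase of endoplasmic reticulum quality control, had means of 5401 and 11564, a log2 ratio of 1.10. UBR4 (Smp_162000), which recognises proteins by their first residue, had means of 4210.2 and 7159.5, a log2 ratio of 0.77.

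Smaller differences in the same direction were found for MARCH5 (Smp_010110), a ligase of the mitochondrial surface, with 781, 849 and 808 in heads and 1036, 1174 and 1277 in tails, giving a log2 fold change of 0.51 ± 0.11 (SE, adjusted p = 0.00436), and for RING finger protein 121 (Smp_161580), with a log2 fold change of 0.43 ± 0.11 (SE, adjusted p = 0.0107). Neither was called with equal total counts, and RING finger protein 121 was lost without head library a (adjusted p = 0.0502). Genes of the polycomb complex that marks histone H2A were called in both directions with the scaling of the authors. Polycomb group ring finger protein 2 (Smp_213060) and 3 (Smp_071980) were higher in tails, with log2 fold changes of 0.60 ± 0.18 (SE, adjusted p = 0.0206) and 0.41 ± 0.15 (SE, adjusted p = 0.0433), while RING1 (Smp_050160), the ligase subunit they bind, was higher in heads, with 733, 715 and 741 in heads, 616, 434 and 569.6 in tails, giving a log2 fold change of −0.45 ± 0.14 (SE, adjusted p = 0.0255). All 3 calls were lost without some single libraries, head libraries a and b among them for each, with adjusted p up to 0.0706, 0.121 and 0.0833. RING1 was still called in heads with equal total counts, while the log2 fold changes of the other 2 were 0.17 (adjusted p = 0.426) and −0.015 (adjusted p = 0.938), so the opposite directions depend on the scaling.

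**Figure D3:**
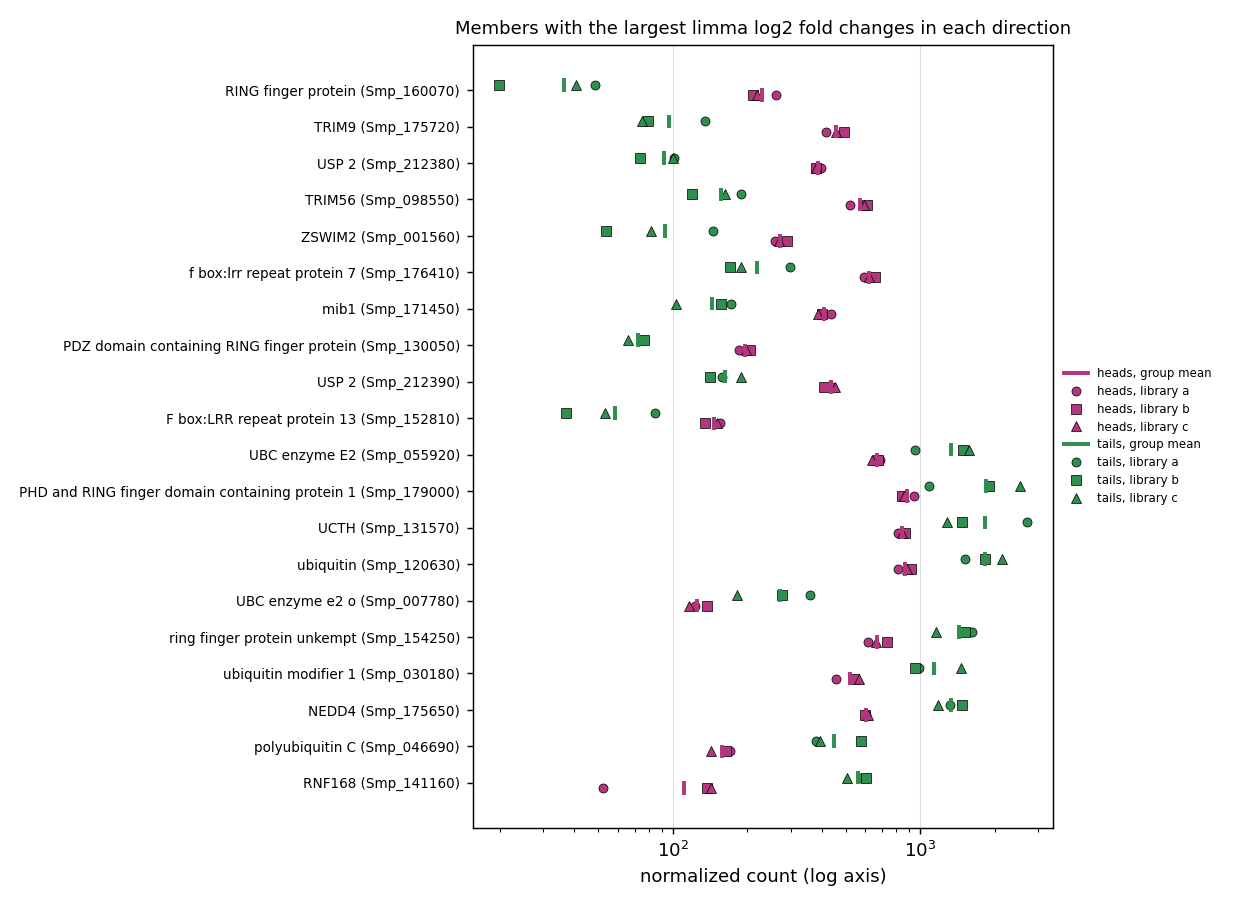
Normalised counts (log axis) in each library of the 10 called members with the largest limma log2 fold change in each direction, among those with a mean of at least 50. Smp_138940 (log2 fold change −2.07), with a lower mean, is thus not shown. Symbols are single libraries, short bars are group means, magenta is heads and green is tails. Head and tail libraries do not overlap for any of these genes. Among the genes higher in heads the head symbols lie close together while the tail symbols spread, and RNF168 is the gene with the widest head spread. With equal total counts all 10 genes higher in heads were still called, but of those higher in tails Smp_007780, Smp_131570 and Smp_179000 were not.

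Of the ligases higher in heads, an unnamed RING finger protein (Smp_160070) had the largest difference, with 261, 212 and 218 in heads and 48.7, 19.9 and 40.7 in tails, giving a log2 fold change of −2.71 ± 0.33 (SE, adjusted p = 0.000358). TRIM9 (Smp_175720), which in mammals and flies acts in growing nerve fibres, had 416, 493 and 457 in heads and 135, 79.4 and 75.1 in tails, for a log2 fold change of −2.28 ± 0.24 (SE, adjusted p = 0.000176). A gene annotated TRIM56 (Smp_098550) had 518, 606 and 589 in heads and 188, 119 and 163 in tails, for a log2 fold change of −1.88 ± 0.19 (SE, adjusted p = 0.000148). Every head library was above every tail library for these 3 genes. The other gene annotated TRIM56 (Smp_039300) had a head mean of 1643 and 459, 204 and 332 in the tail libraries, a log2 ratio of −2.31. So 3 of the 4 TRIM genes were at least 2-fold higher in heads, against 19.4% of all genes with a mean of at least 50. The fourth, TRIM33 (Smp_082660), had a head mean of 1039.9 and 1121, 1449.7 and 1399 in tails.

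Mind bomb (mib1, Smp_171450), a ligase that acts on the ligands of Notch, had 435, 401 and 386 in heads and 171, 156 and 103 in tails, for a log2 fold change of −1.53 ± 0.20 (SE, adjusted p = 0.00049). A pair of ligases with PDZ domains, which bind the ends of membrane proteins, were also higher in heads. Smp_130050 had 184, 205 and 198 in heads and 75.1, 76.6 and 65.7 in tails, for a log2 fold change of −1.42 ± 0.17 (SE, adjusted p = 0.00033), and PDZRN3 (Smp_141520), which in mammals is found at the junction of nerve and muscle, had 301, 344 and 262 in heads and 181, 73.8 and 119 in tails, for a log2 fold change of −1.36 ± 0.31 (SE, adjusted p = 0.00559). ZSWIM2 (Smp_001560) had 258, 289 and 269 in heads and 145, 53.9 and 81.4 in tails, for a log2 fold change of −1.65 ± 0.33 (SE, adjusted p = 0.00309). MYLIP (Smp_130590), known in mammals for removing the LDL receptor, had a smaller difference, with 579.9, 646 and 674 in heads, 406, 323 and 407 in tails, giving a log2 fold change of −0.75 ± 0.13 (SE, adjusted p = 0.00192). No head library overlapped a tail library in any of these 5 genes, and each call remained with any 1 library left out.

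All 4 gene models annotated BRE1, the ligase that marks histone H2B, had lower means in tails. Smp_166960 had a head mean of 3307 and 1388, 658 and 823 in the tail libraries, a log2 ratio of −1.79. Smp_213400 had a head mean of 1925 and 1628, 1594 and 998 in tails. The remaining pair had few reads. Smp_138940 had 37.2, 45.1 and 37.9 in heads and 22.2, 2.84 and 9.39 in tails, for a log2 fold change of −2.07 ± 0.60 (SE, adjusted p = 0.0175) that was lost without any single head library (adjusted p up to 0.0634), and Smp_163590, with a log2 fold change of −0.55 (−1.27 to 0.18), passed only with equal total counts (adjusted p = 0.0239). Their partner E2A was among the genes higher in tails, as given above, but its call was lost without head library a. With equal total counts its log2 fold change was 0.01 (adjusted p = 0.967), so the opposite directions depend on the scaling.

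Many markers of muscle and nerve, listed by annotation words alone, lay on the same side as these ligases, but not all. The muscle list also held a myosin annotated non muscle (Smp_046060, log2 ratio −0.83) and a cellular myosin (Smp_155840, 0.66). Of 16 muscle genes 10 were at least 2-fold higher in heads (median log2 ratio −1.75) and 5 had a ratio above 0, from 0.08 to 0.67, with summed means of 109074 in heads and 32947 in tails. Of 16 neuronal genes with a mean of at least 50, 11 were at least 2-fold higher in heads and 2 in tails, and 3 had a ratio above 0 (median −1.42), with summed means of 8181 and 5786 over all 24 neuronal genes. Synapsin had a head mean of 1478 and a tail mean of 489.6. The head libraries were close to each other in both lists, with sums of 3176 to 3512 over the 8 muscle genes and 2916 to 3082 over the 21 neuronal genes with head reads. No muscle marker was at 0 in either group, and 1 neuronal gene was at 0 in tails. Whether the share of muscle or nerve tissue had a part in the differences of the ligases was not tested.

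The cullins, which carry the largest family of ligases, could be tested with limma for only 2 of 6 genes, whose call depended on the scaling. The means of 5 of the 6 cullin genes were lower in tails, within a narrow range of log2 ratios from −0.35 to 0.15, and all 6 were below 0 with equal total counts. Cullin 3 (Smp_031000) had a head mean of 1457 and 1247, 1248 and 936 in tails, and the gene annotated only cullin (Smp_082850) a head mean of 2302 and 2080.2, 1838 and 1584. Cullin 1 (Smp_150270), the scaffold for F box proteins, had a head mean of 1787 and 1603, 1742 and 1524 in the tail libraries, and Cullin 2 (Smp_079740) means of 1851 and 2048. In each of the first 3 the tail libraries were all below the head mean. The pair of neighbouring cullin 5 models were the 2 tested, and 0 passed, also at an unadjusted p under 0.05, but both were called in heads with equal total counts (log2 fold changes of −0.61 for each, adjusted p = 0.00159 for Smp_143030 and 0.0138 for Smp_143040). Smp_143030 had 448, 478 and 428 in heads and 406, 394 and 391 in tails, with a log2 fold change of −0.18 (−0.43 to 0.07), and Smp_143040 had 143, 147 and 127 and 133, 122 and 113, with one of −0.18 (−0.57 to 0.21). The cullin associated protein Smp_170510 had a log2 ratio of 0.02, and a gene annotated as SCF subunit CulA (Smp_052460) had 1 read in 1 head library and 0 in tails, which is too few for a ratio.

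F box proteins choose the targets of cullin 1 ligases. Among the 23 with a mean of at least 50 the median log2 ratio was 0.03 (−0.40 with equal total counts). Of these 23, 3 were at least 2-fold higher in heads (against 19.4% of all genes of that level) and none in tails (against 13.5%). Of the 14 tested, 5 were higher in heads (35.7%, near the 37.2% of all genes) and 1 in tails (7.14%, against 26.9%). The other 8 did not pass. Scaling to equal total counts gave 8 calls in heads and 0 in tails, beside 52.8% and 14.1% of all genes.

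The F box gene with the largest difference was f box:lrr repeat protein 7 (Smp_176410), with 590.4, 656 and 621 in heads, 298, 170.2 and 188 in tails, giving a log2 fold change of −1.55 ± 0.21 (SE, adjusted p = 0.000515). F box:LRR repeat protein 13 (Smp_152810) had 155, 135 and 151 in heads and 84.8, 36.9 and 53.2 in tails, for a log2 fold change of −1.39 ± 0.31 (SE, adjusted p = 0.00476). The PHD and F box protein Smp_127230 had 157, 135 and 151 in heads and 62.6, 70.9 and 75.1 in tails, for a log2 fold change of −1.08 ± 0.19 (SE, adjusted p = 0.00155). Heads and tails did not overlap in these 3, and each call remained with any 1 library left out. F box only protein 16 (Smp_125280) was also higher in heads, with a log2 fold change of −0.97 ± 0.27 (SE, adjusted p = 0.0137), but not without head library a or b (adjusted p up to 0.0565). F box only protein 32 (Smp_132210), known in mammals as atrogin-1 for its part in muscle wasting, had a head mean of 1062 and 688, 505 and 519.6 in the tail libraries, all below it.

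In the other direction, the leucine rich repeat F box gene Smp_029210 was higher in tails, with 911, 949 and 962 in heads and 1162, 1384 and 1487 in tails, giving a log2 fold change of 0.51 ± 0.11 (SE, adjusted p = 0.00549), which was 0.08 with equal total counts. The WD repeat F box gene Smp_098760 had means of 1251 and 2278 (log2 ratio 0.86), and f box:wd repeat containing protein 11 (Smp_099930), a relative of the ligase subunit that handles beta-catenin in mammals, 2354 and 3552 (0.59). The f box and wd40 domain protein 7 gene (Smp_030320), which in mammals handles cyclin E and Notch, had a head mean of 2506 and 1908, 1796 and 1509 in tails. The F box genes with the highest counts, Smp_016090 (F box protein 38) and Smp_053060 (F box only protein 9), had log2 ratios of 0.38 and 0.20, which turn negative with equal total counts.

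**Figure D4:**
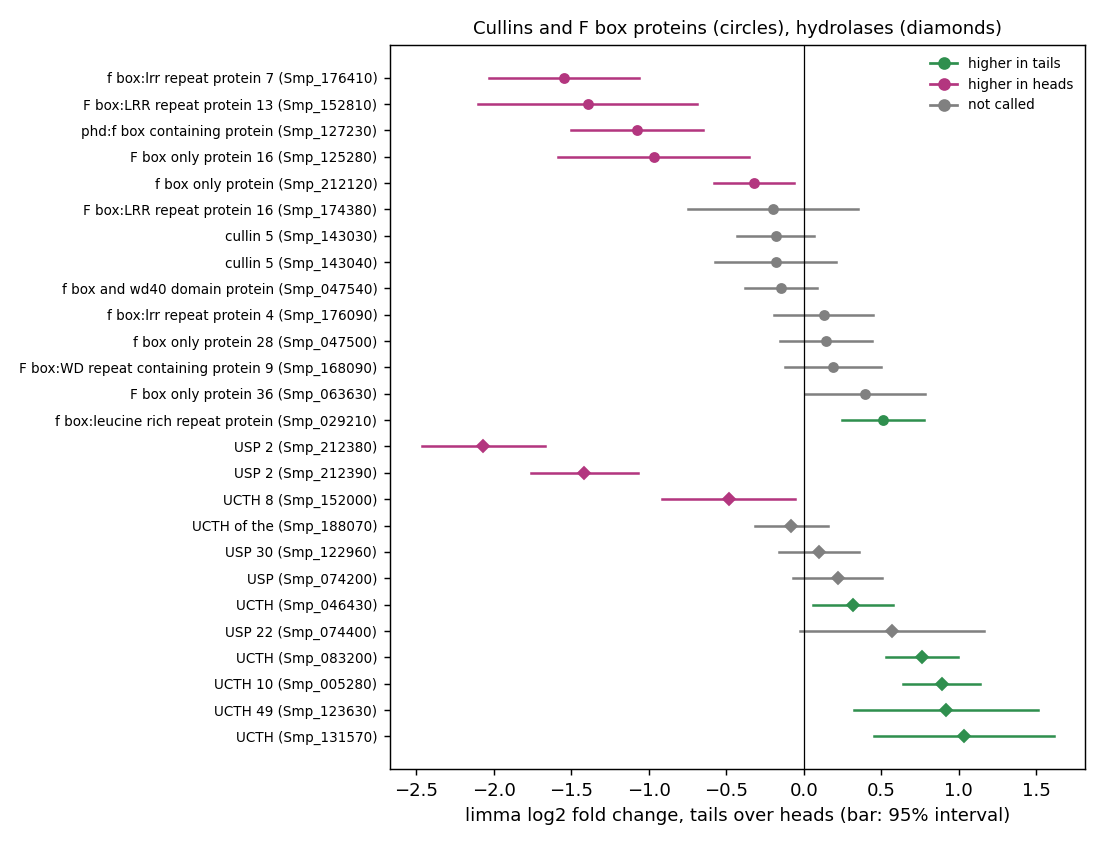
Log2 fold change from limma, tails over heads, with its 95% interval, for the tested cullin and F box genes (circles) and hydrolases (diamonds) with a mean of at least 50. Green marks genes higher in tails, magenta genes higher in heads and grey genes that did not pass. Among all tested F box genes 5 were called in heads and 1 in tails, and among hydrolases 3 and 5. Of all tested genes 37.2% were called in heads and 26.9% in tails. With equal total counts all estimates would lie about 0.43 lower, with 0 F box genes called in tails and 8 in heads, 2 hydrolases in tails and 5 in heads, and both cullin 5 models in heads.

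The hydrolases, which remove ubiquitin, went in both directions. The median log2 ratio of the 23 genes was 0.12 (−0.31 with equal total counts). Of these, 2 were at least 2-fold higher in tails (against 13.5% of all genes) and 2 in heads (against 19.4%). Of the 12 tested, 5 were higher in tails (41.7%, against 26.9% of all genes) and 3 in heads (25%, against 37.2%). The other 4 did not pass.

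The hydrolase Smp_131570 had 812, 863 and 846 in heads and 2698, 1478 and 1277 in tails, with tail library a far above the other tail libraries, and a log2 fold change of 1.03 ± 0.25 (SE, adjusted p = 0.00769). Hydrolase 10 (Smp_005280) had 557, 554 and 618 in heads and 1135, 1098 and 973 in tails, for a log2 fold change of 0.89 ± 0.11 (SE, adjusted p = 0.000342), and the gene annotated ubiquitin C terminal hydrolase (Smp_083200) had 718, 788 and 812 and 1226, 1359 and 1346, with one of 0.76 ± 0.10 (SE, adjusted p = 0.000464). Both were still called with equal total counts, but Smp_131570 was not (adjusted p = 0.0597), nor was hydrolase 49. Hydrolase 49 (Smp_123630) had 740.2, 679 and 713 in heads and 841, 1682 and 1709 in tails, for a log2 fold change of 0.92 ± 0.26 (SE, adjusted p = 0.0145) that was lost without head library b, tail library b or tail library c (adjusted p up to 0.0578). The fifth, Smp_046430, had a log2 fold change of 0.32 ± 0.11 (SE, adjusted p = 0.0353), which was lost without any single head library or tail library b (adjusted p up to 0.143) and was negative with equal total counts.

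Other hydrolases could not be tested. Hydrolase 7 (Smp_089180), which in mammals acts on p53 and its ligase, had means of 7422 and 13681, a log2 ratio of 0.88. The C19 peptidase Smp_196290 had 963, 985 and 986 in the head libraries and a tail mean of 2401, a log2 ratio of 1.30. Hydrolase 14 (Smp_084740), which trims chains at the proteasome, had a head mean of 1074 and 1548, 1989 and 2147 in tails, all above it. Hydrolase 5 (Smp_069960), which takes apart free chains, had a log2 ratio of only 0.12.

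In heads, both genes annotated ubiquitin specific peptidase 2 were higher. Smp_212380 had 396, 377 and 379.6 in heads and 102, 73.8 and 100.2 in tails, for a log2 fold change of −2.07 ± 0.17 (SE, adjusted p = 7.4e-05), the smallest adjusted p of any member. Smp_212390 had 441, 408 and 452 in heads and 159, 142 and 188 in tails, for a log2 fold change of −1.42 ± 0.15 (SE, adjusted p = 0.000186). Their head libraries lay close together and far above the tail libraries. The third, hydrolase 8 (Smp_152000), known for sorting receptors at endosomes, had 990.0, 945 and 1021 in heads and 961, 596 and 607 in tails, for a log2 fold change of −0.49 ± 0.18 (SE, adjusted p = 0.0483). That call was lost without any single library other than tail library a (adjusted p up to 0.156). Peptidase 9X (Smp_153690) had a head mean of 989 and 1035, 454 and 545 in tails, on both sides of it, and hydrolase 30 (Smp_122960), found on mitochondria in mammals, did not pass, with a log2 fold change of 0.10 (−0.16 to 0.36), but was called in heads with equal total counts (adjusted p = 0.0301).

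The 8 members with ubiquitin domains and no enzyme class had log2 ratios from −0.54 to 0.34, and all 8 were below 0 with equal total counts. The AN1 type zinc finger and ubiquitin gene Smp_123260 was higher in heads, with 483, 441 and 437 in heads and 327, 267 and 341 in tails, giving a log2 fold change of −0.55 ± 0.14 (SE, adjusted p = 0.00847). A transmembrane and ubiquitin domain gene (Smp_136780) was higher in tails, with a log2 fold change of 0.34 ± 0.12 (SE, adjusted p = 0.0325), which was lost without any single library other than tail library a (adjusted p up to 0.105), and its value was −0.090 with equal total counts. The ubiquitin associated and SH3 domain gene Smp_151720 missed the threshold, with a log2 fold change of −0.37 ± 0.14 (SE, adjusted p = 0.0504), and passed without tail library a or c (adjusted p = 0.0373 and 0.0211) and with equal total counts (adjusted p = 0.00157). The ubiquitin fusion degradation gene Smp_196510, a partner of the segregase that pulls tagged proteins out of complexes, had a log2 ratio of −0.05.

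Of the 37 members with reads recovered in tails only, all 3 tail libraries lay above the head mean for 8, below it for 19 and on both sides for 10. The 2 members recovered in heads only, Smp_167680 and Smp_196290, had all 3 head libraries below the tail mean. These directions depend on the recovery, whose upper limit was a lower mean in heads than in tails. Members recovered in tails only thus mostly had high head means, which favours tail libraries below the head mean. For the members recovered in heads only the limits largely fix the direction. No share of all genes was worked out, so no preference for a direction can be read from these counts. Among the members without a test and with a mean of at least 50, 8 were at least 2-fold higher in tails and 2 in heads. The 10 members with a mean under 50 included 3 with no reads in tails and no more than 3 reads in heads, for which no ratio is given.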

How the data were processed

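RNA of heads and tails was sequenced by the authors (TruSeq stranded kit), mapped with STAR 2.5.0b to the WormBase ParaSite genome and analysed with DESeq 1.22. The deposited table held 1 signal for each group and 1 over all libraries, made by the authors by dividing the reads of each gene by a size factor and averaging the 3 libraries. It held 0 columns of single libraries. It also held the authors' fold changes and p-values, which were not used.

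Whole reads of each library were worked out from the 10 digits of the group means, with size factors of 2.55, 2.35 and 2.08 in heads and 0.72, 0.35 and 0.32 in tails. Every set of reads was searched for head means under 200 and tail means under 1000. Above these, up to 1000 and 2000, only sets whose highest library was within 2 to 3 times the lowest were searched, and they were set aside where the mean of the other group was 8 or more times higher. For Smp_056700 alone every set giving its head mean was listed, whatever its spread, and its head reads were left unsolved.

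Tails were compared with heads with limma 3.58.1 on log2(normalised count + 1) (trend option on), keeping genes with 10 or more reads over the 6 libraries. P-values were adjusted by Benjamini-Hochberg over 6315 genes and called under 0.05. The solving of reads and the test were both tested on simulated data. There limma found 60 of 100 genes with a log2 change of 1 and 91 of 100 with one of 2. It called 11 of 6074 unchanged genes. A gene that did not pass may thus still differ. Of the simulated sets of reads solved, 2.5% were wrong at tail means of 1500 to 2000, and at most 0.70% at the other levels. Ratios of group means carry no error and had no test. Alternatives covered the pseudocount, filters, scaling and each library left out. Named were, in each class, the 3 members with the largest ratio in each direction and the 2 with the highest mean, all modifiers, E1 genes and cullins, members past 4-fold and the 10 smallest adjusted p in each direction. Other members named in the text were chosen after their values were seen. The members and lists were chosen with earlier results of these data known. Gene order was taken from the RefSeq annotation of assembly ASM23792v2, in which 154 members were found.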

Additional observations from a re-analysis of the deposited data

How the results depend on the processing

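With equal total counts 10 members were higher in tails and 46 in heads, 4 and 22 members were past 2-fold in tails and in heads, the median log2 ratio of members was −0.26, and the log2 fold change of Smp_136780 turned to −0.090. Leaving out 1 library gave 19 to 36 members higher in tails and 16 to 29 higher in heads. Restricted to the levels where every set of reads was searched, an alternative chosen after seeing the data, 23 members were tested and 4 were higher in tails and 7 in heads. The counts past the fold were 36 in tails and 22 in heads at 1.5-fold, 3 and 4 at 4-fold, and 9 in heads with a mean of at least 200. Among these counts, shares of all genes are given only for limma with equal total counts (14.1% in tails, 52.8% in heads) and 4-fold. The other counts describe the members alone. Pseudocounts of 0.5 and 5, other minimum reads, a median log2 ratio of 0 and limma without a trend kept the counts of limma calls within 1.5 times. No paired analysis was possible because the columns carry no replicate numbers. Most abundant members had no test, so no statement on their error can be made, and reads were fewer in tails, which limits low levels there.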
